A study of Mus musculus with 10 samples.

Results

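The genes described here encode the T cell receptor signalling complex: *Cd3d*, *Cd3e*, *Cd3g*, *Cd247*, *Lck*, *Zap70*, *Lat*, *Cd4*, *Cd8a* and *Cd8b1*. They were taken by symbol from the table of 55487 genes, and all 10 were found. Whole ovaries of C57BL/6J mice were sequenced, 1 library per ovary. The Control group held 4 ovaries of mice aged 8 weeks, and the Aged and Aged+CF groups held 3 ovaries each, of mice aged 11 months by the sample labels and 10 months by the methods of the study. Aged+CF mice received CEFFE, a cell-free protein extract of fat tissue, by tail vein injection (200 μL at 3 μg/μL, every other day for 2 weeks), and Control and Aged mice received the same volume of saline. All mice, the Control group included, had been given 10 IU of PMSG, a gonadotropin that makes follicles grow, 48 h before the ovaries were collected. The members were selected on their measured levels in these 10 ovaries, so their differences between groups are described with standard errors and carry no p values.

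The T cell receptor reads peptides held on the surface of other cells, but its antigen-binding chains have almost no tail inside the cell. The CD3 chains encoded by *Cd3d*, *Cd3e* and *Cd3g*, with the zeta chain encoded by *Cd247*, carry the signal inwards. The coreceptors CD4 and CD8 bring the kinase LCK to the receptor, LCK phosphorylates the CD3 and zeta tails, the kinase ZAP70 docks there, and ZAP70 in turn phosphorylates the scaffold protein LAT. T cells are among the white blood cells that live in the ovarian stroma. Natural killer cells also use *Lck*, *Zap70* and *Cd247*, mast cells and platelets use *Lat*, and some dendritic cells carry *Cd4* or *Cd8a*.

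*Cd3d*, *Cd3e* and *Cd3g* lie side by side on chromosome 9, and the start sites of *Cd3g* and *Cd3d* are 1355 bp apart and face away from each other. Their promoter windows, 250 bases before to 50 bases after each start, are shown because these 3 neighbours had the largest differences between the Aged and Control groups. The sequences are from RefSeq (GRCm38.p6), at chr9:44980382-44980681 on the minus strand for *Cd3g*, chr9:44981536-44981835 on the plus strand for *Cd3d* and chr9:45009562-45009861 on the minus strand for *Cd3e*. Capitals mark AGGAAG, a core bound by ETS factors, in either orientation.
Cd3g: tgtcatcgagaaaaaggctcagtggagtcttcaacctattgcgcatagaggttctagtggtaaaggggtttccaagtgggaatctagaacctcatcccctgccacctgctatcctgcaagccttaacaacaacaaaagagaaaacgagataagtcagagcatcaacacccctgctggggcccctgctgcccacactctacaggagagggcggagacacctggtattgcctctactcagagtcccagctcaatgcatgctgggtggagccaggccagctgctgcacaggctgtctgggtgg
Cd3d: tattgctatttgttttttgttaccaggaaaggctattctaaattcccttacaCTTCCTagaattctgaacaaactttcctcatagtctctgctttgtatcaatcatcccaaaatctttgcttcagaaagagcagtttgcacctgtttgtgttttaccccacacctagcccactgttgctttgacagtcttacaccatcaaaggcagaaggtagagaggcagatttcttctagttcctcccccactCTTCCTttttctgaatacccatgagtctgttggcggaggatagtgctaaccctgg
Cd3e: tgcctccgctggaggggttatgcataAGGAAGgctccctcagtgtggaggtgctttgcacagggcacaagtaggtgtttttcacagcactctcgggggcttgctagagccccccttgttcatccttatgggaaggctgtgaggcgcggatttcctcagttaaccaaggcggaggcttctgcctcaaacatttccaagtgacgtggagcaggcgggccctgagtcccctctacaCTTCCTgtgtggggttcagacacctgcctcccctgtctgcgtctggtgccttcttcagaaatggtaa
The ETS core stood at 2 places in the *Cd3d* window and 2 in the *Cd3e* window, and these letters were not in the *Cd3g* window. A window was held for 8 of the 10 members, 11 windows in all, and none for *Cd4* and *Cd8b1*. The ETS core was in 8 of the 11, against 35.4% of all 32851 windows of this length. TGTGGT, bound by RUNX factors, was in 3 of the 11 and in 16.8% of all windows, and TATAAA, the TATA box, was in 0 of the 11 and in 13.6% of all windows. No ETS match in the *Cd3d* and *Cd3e* windows overlapped a match to another motif searched on both strands (the RUNX and TATA box letters above, AGATAA for GATA factors, CTTTGA for TCF and LEF factors, and the E-box CANNTG). A match describes letters and not a bound site.

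The ovaries had 15761789 to 21318254 reads on genes, and levels are given as CPM, the read count scaled to the TMM-normalised library size. Of the members, 8 passed the filter on low counts, and *Cd8a* and *Cd8b1* did not. Aged replicate 34 stood apart from the other Aged ovaries, so results that rest on it are also given without it. Summed B cell markers (12 genes) were at 1680 CPM in it, against 25.3 and 135 CPM in the other Aged ovaries, 14.2 to 17.7 in Control and 24.9 to 29.1 in the Aged+CF group. Oocyte markers (9 genes) were at 10.8 CPM in it, against 79.9 and 83.4 CPM in the other Aged ovaries and 296 to 405 in Control. Oviduct markers (5 genes) reached 306 CPM in Aged replicate 34 and 394 CPM in Control replicate 33, against 4.16 to 37.8 CPM in the other ovaries. All ovaries held the granulosa cell factor *Foxl2* (248 to 443 CPM) and the steroidogenic enzyme *Cyp11a1*.

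The T cell receptor complex genes were low in all ovaries, and with all 10 ovaries their means were highest in the Aged group. The CD3 chain genes differed most between Aged and Control, 3.9-fold for *Cd3d*, 4.91-fold for *Cd3e* and 4.73-fold for *Cd3g*. Dropping Aged replicate 34 put the Aged mean under the Control mean for *Cd247* (0.681 against 0.808 CPM) and *Cd8a* (0.366 against 0.401 CPM). It also put the Aged mean of *Zap70* (2.99 CPM) under its Aged+CF mean (3.36 CPM). The remaining members kept their highest mean in Aged. *Cd3e* and *Cd3g* were lower in every Aged+CF ovary than in any Aged ovary, and higher in every Aged+CF ovary than in any Control ovary. *Lck* and *Cd4*, at the highest levels of the complex in Control, differed less, 1.7-fold and 1.92-fold between Aged and Control. In bulk tissue, a change in the number of T cells and a change in the RNA of each T cell cannot be told apart. Aged against Control and Aged+CF against Aged share the Aged ovaries, so opposite signs in these comparisons are not independent of each other.

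**Figure D1:**
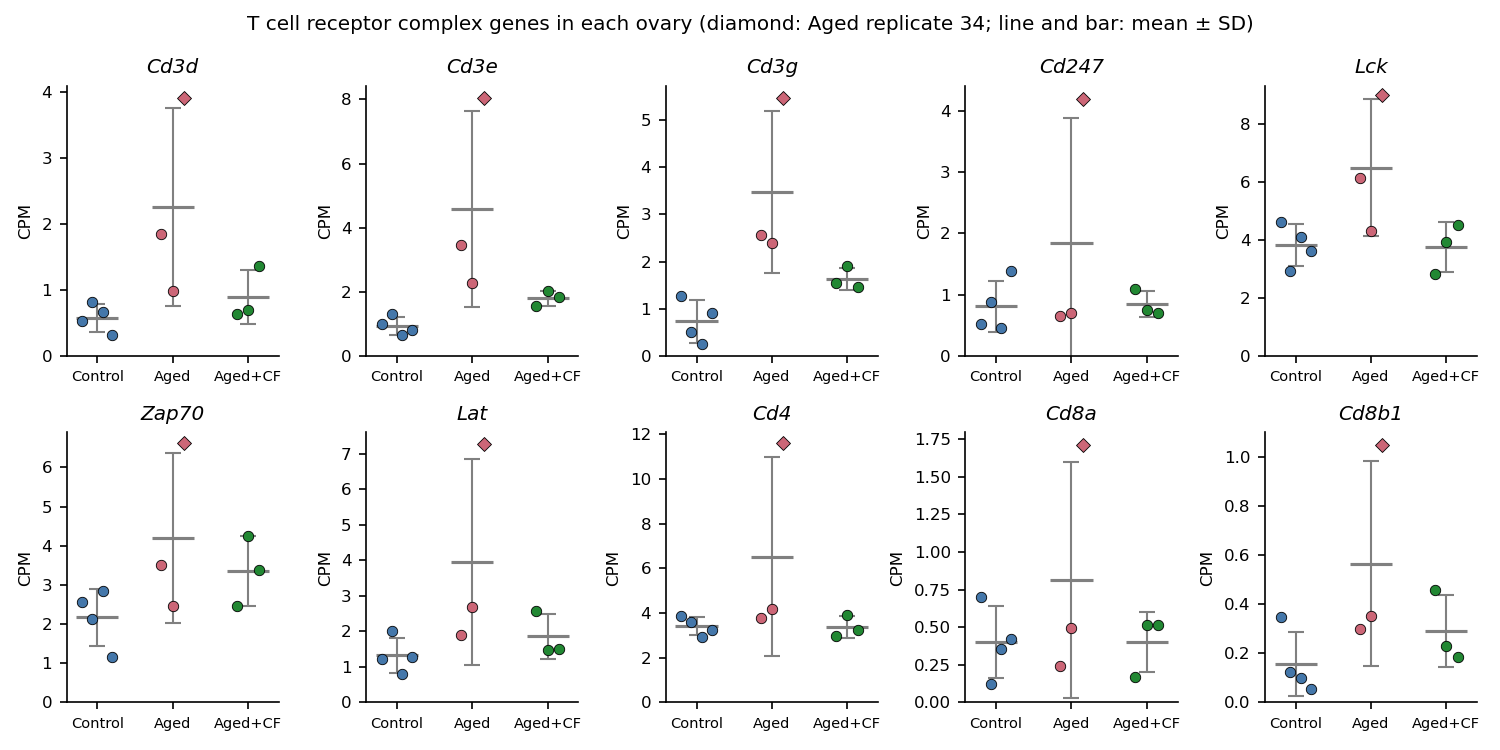
Level of each T cell receptor complex gene in CPM (vertical axis, from 0, with its own scale in each panel) in every Control, Aged and Aged+CF ovary. Points are ovaries, the diamond is Aged replicate 34, and the line and bar are the mean ± SD, cut at 0. Aged replicate 34 was the highest ovary for 10 of 10 members (and for 16.9% of all genes tested), and *Cd3e* and *Cd3g* did not overlap between any of the 3 groups.

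*Cd3e* (ENSMUSG00000032093, GRCm38 chromosome 9, 44998740 to 45009627, minus strand) encodes the epsilon chain, which pairs with both other CD3 chains. Its level was 0.992, 1.31, 0.659 and 0.795 CPM in the 4 Control ovaries (13 to 21 reads each). In Aged it was 3.46, 2.26 and 8.05 CPM (58, 32 and 146 reads), and in the Aged+CF group 1.55, 2.01 and 1.83 CPM (27, 35 and 39 reads). The groups fell in the order Control, Aged+CF, Aged, with no overlap. The mean was 0.939 ± 0.282 CPM in Control (SD, n = 4), 4.59 ± 3.06 CPM in Aged (n = 3) and 1.8 ± 0.233 CPM in the Aged+CF group (n = 3). The log2 fold change was 2.29 ± 0.43 (SE) in Aged against Control, -1.36 ± 0.45 in Aged+CF against Aged and 0.94 ± 0.43 in Aged+CF against Control. Without Aged replicate 34, the first was 1.65 ± 0.32 and the second -0.69 ± 0.33.

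*Cd3g* (ENSMUSG00000002033, chromosome 9, 44969572 to 44980431, minus strand) encodes the gamma chain. Its level was 1.28, 0.499, 0.254 and 0.901 CPM in Control (5 to 22 reads), 2.56, 2.4 and 5.46 CPM in Aged (34 to 99 reads) and 1.55, 1.9 and 1.45 CPM in the Aged+CF group (27 to 33 reads). The order of the groups was the same as for *Cd3e* and again without overlap, although the Control ovaries spread widely. The log2 fold change was 2.24 ± 0.49 in Aged against Control (1.79 ± 0.48 without Aged replicate 34), -1.09 ± 0.5 in Aged+CF against Aged (-0.62 without it) and 1.15 ± 0.5 in Aged+CF against Control. Among all 18956 genes tested, 167 (0.881%) kept the 3 groups apart in this order, and 469 (2.47%) in the reverse order.

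*Cd3d* (ENSMUSG00000032094, chromosome 9, 44981786 to 44987339, plus strand) encodes the delta chain. Its level was 0.525, 0.81, 0.659 and 0.318 CPM in Control (6 to 13 reads), and 1.85, 0.988 and 3.91 CPM in Aged (14 to 71 reads). Aged+CF ovaries were at 0.631, 0.689 and 1.36 CPM (11 to 29 reads). Every Aged ovary was above every Control ovary, while Aged+CF overlapped both. *Cd3d* had a log2 fold change of 1.96 ± 0.51 in Aged against Control (1.34 ± 0.47 without Aged replicate 34), -1.32 ± 0.53 in Aged+CF against Aged (-0.67 without it) and 0.64 ± 0.53 in Aged+CF against Control.

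*Cd247* (ENSMUSG00000005763, chromosome 1, 165788681 to 165877277, plus strand) encodes the zeta chain, and unlike the 3 CD3 genes its Aged mean rested on a single ovary. Its level was 0.525, 0.873, 0.456 and 1.38 CPM in Control and 0.656, 0.705 and 4.19 CPM in Aged, with 1.09, 0.747 and 0.703 CPM in the Aged+CF group. Apart from Aged replicate 34, all ovaries of the 3 groups lay in 1 common range. The log2 fold change in Aged against Control was 1.20 ± 0.66 with all ovaries and -0.21 ± 0.49 without Aged replicate 34. Between Aged+CF and Aged it was -1.14 ± 0.71 and 0.29. *Cd247* overlaps *Pou2f1* on the opposite strand, which had 502 to 1253 reads per ovary against 9 to 76 for *Cd247*. No source used here says whether strand was used in counting, so the counts of *Cd247* are uncertain.

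*Lck* (ENSMUSG00000000409, chromosome 4, 129548344 to 129573641, minus strand) encodes the first kinase of the pathway. Its level was 4.61, 2.93, 4.11 and 3.6 CPM in Control (47 to 81 reads), 6.14, 4.3 and 8.99 CPM in Aged (61 to 163 reads) and 2.81, 3.91 and 4.5 CPM in the Aged+CF group (49 to 96 reads). Aged replicate 33 lay inside the Control range, and Aged+CF and Control covered nearly the same range. *Lck* had a log2 fold change of 0.77 ± 0.28 in Aged against Control (0.49 ± 0.27 without Aged replicate 34) and -0.79 ± 0.31 in Aged+CF against Aged (-0.50 without it).

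*Zap70* (ENSMUSG00000026117, chromosome 1, 36761798 to 36782818, plus strand) encodes the kinase that docks on the phosphorylated chains. It was at 2.57, 2.12, 2.84 and 1.17 CPM in Control, 3.52, 2.47 and 6.62 CPM in Aged and 2.47, 4.25 and 3.37 CPM in the Aged+CF group. Of the members, it had the smallest difference between Aged+CF and Aged, a log2 fold change of -0.33 ± 0.42, which was 0.15 without Aged replicate 34. Between Aged and Control it was 0.95 ± 0.39, and 0.50 ± 0.37 without that ovary. All 3 groups overlapped.

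*Lat* (ENSMUSG00000030742, chromosome 7, 126363824 to 126369570, minus strand) encodes the scaffold on which the signal branches. Its level was 1.23, 2, 0.811 and 1.27 CPM in Control, 1.91, 2.68 and 7.28 CPM in Aged and 2.58, 1.49 and 1.5 CPM in the Aged+CF group. Aged replicate 31 lay below the highest Control ovary. The log2 fold change in Aged against Control was 1.58 ± 0.48, and 0.83 ± 0.39 without Aged replicate 34. In Aged+CF against Aged it was -1.10 ± 0.51, and -0.32 without that ovary.

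*Cd4* (ENSMUSG00000023274, chromosome 6, 124864692 to 124888221, minus strand), the coreceptor of helper T cells, was at 3.85, 3.62, 2.94 and 3.23 CPM in Control (58 to 66 reads). It was at 3.76, 4.16 and 11.6 CPM in Aged (59 to 211 reads) and 2.98, 3.91 and 3.23 CPM in the Aged+CF group (52 to 69 reads). Aged replicate 34 was 2.8 times the next highest ovary, and the other 9 ovaries lay between 2.94 and 4.16 CPM. The log2 fold change in Aged against Control was 0.94 ± 0.37 with all ovaries and 0.25 ± 0.21 without Aged replicate 34. Between Aged+CF and Aged it was -0.95 ± 0.4 and -0.25.

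*Cd8a* (ENSMUSG00000053977, chromosome 6, 71373427 to 71379173, plus strand) and *Cd8b1* (ENSMUSG00000053044, chromosome 6, 71322788 to 71337494, plus strand) encode the chains of the coreceptor of cytotoxic T cells and had the fewest reads. *Cd8a* had 12, 2, 7 and 8 reads in Control, 4, 7 and 31 reads in Aged and 3, 9 and 11 in the Aged+CF group. *Cd8b1* had 6, 2, 2 and 1 reads in Control, 5, 5 and 19 reads in Aged and 8, 4 and 4 in the Aged+CF group. Apart from Aged replicate 34 no ovary had more than 12 reads of either gene, and the groups overlapped. In a fit without the filter on low counts, the log2 fold change in Aged against Control was 1.02 ± 0.69 for *Cd8a* and 1.84 ± 0.68 for *Cd8b1*. Leaving out Aged replicate 34 took the Aged mean of *Cd8a* from 0.814 to 0.366 CPM, against 0.401 CPM in Control, and that of *Cd8b1* from 0.566 to 0.325 CPM, against 0.157 CPM.

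Over the complex, the Aged mean was above the Control mean for 10 of 10 members, and 3 (*Cd3d*, *Cd3e* and *Cd3g*) passed edgeR's adjusted threshold of 0.05 at a fold change of at least 1.5, the limits of the study's methods. The call of *Cd3d* was lost without Aged replicate 34 or any 1 of the 4 Control ovaries, with only the compared groups and with limma, and that of *Cd3g* without Control replicate 32. Of all genes tested, 5% were called higher in Aged by these limits, and nothing is read from the members' count, since their choice used this contrast. The median log2 fold change of the 8 members that passed the filter was 1.39, against 0 for all genes tested, and 0.66 without Aged replicate 34. Without that ovary 7 of 8 members were higher and 2 (*Cd3e* and *Cd3g*) were called, with 16.1% of all genes called in either direction. *Cd3d*, *Cd3e* and *Cd3g* were also the 3 members whose Aged and Control ovaries did not overlap, and 11.8% of all genes were higher in Aged without overlap.

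Between Aged+CF and Aged, 10 of 10 members were lower in the Aged+CF group and 0 were called by edgeR at adjusted p, by DESeq2 or by limma, with 4 (*Cd3d*, *Cd3e*, *Lck* and *Cd4*) at unadjusted p in edgeR. Of all genes, 0.00528% were called at adjusted p and 4.05% were called lower at unadjusted p. The median over the 8 members was -1.1, against -0.02 for all genes. Without Aged replicate 34, 6 of 8 members were lower, the median was -0.41 and 0 were called at adjusted or unadjusted p, by which 2.87% and 12.2% of all genes were called. *Cd3e* and *Cd3g* were lower in the Aged+CF group without overlap, as were 8.39% of all genes.

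In Aged+CF against Control, 8 of 10 members were higher in the Aged+CF group, and *Lck* (-0.03) and *Cd4* (-0.01) had log2 fold changes so near 0 that 1 of them changed sign with DESeq2's size factors. Of those counted as higher, *Cd247* (0.06 ± 0.69) and *Cd8a* (0.01 ± 0.72, without the filter) were also near 0. No member was called at adjusted p by edgeR, DESeq2 or limma, and 1 (*Cd3g*) passed at unadjusted p in edgeR. At adjusted p 0.179% of all genes were called, and at unadjusted p 3.33% were called higher. *Cd3e* and *Cd3g* were higher in the Aged+CF group without overlap, as were 9.69% of all genes.

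**Figure D2:**
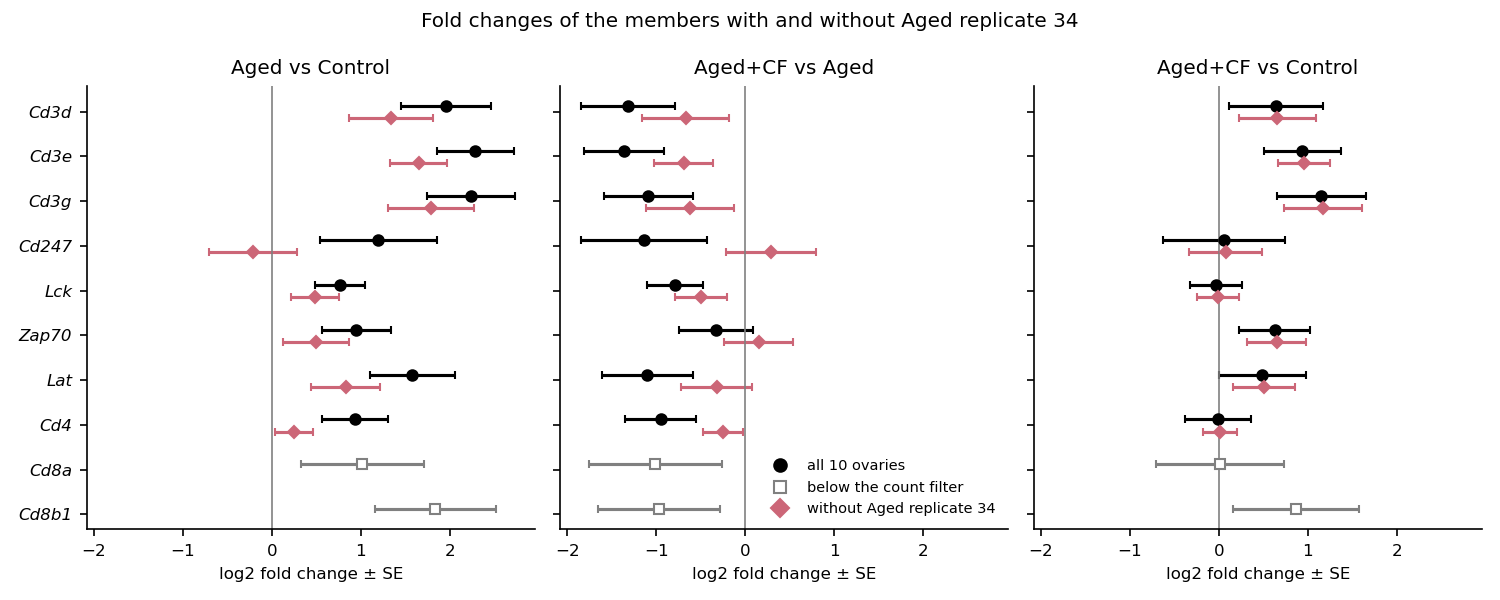
Log2 fold change of each member (horizontal axis, ± SE of the edgeR fit) in the 3 comparisons named above the panels. Black circles are from all 10 ovaries, diamonds leave out Aged replicate 34, and open squares are *Cd8a* and *Cd8b1*, which are below the count filter and have no value without that ovary. In Aged vs Control, *Cd3e* stays at 1.65 without Aged replicate 34 while *Cd247* goes from 1.20 to -0.21.

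The order of the members was compared per gene length. In FPKM (reads scaled to gene length and to the library), the Control order was led by *Lck* (0.84 ± 0.165), *Cd4* (0.71 ± 0.0805) and *Zap70* (0.537 ± 0.185), followed by *Cd3d* (0.277 ± 0.0985), *Lat* (0.266 ± 0.0953), *Cd3e* (0.216 ± 0.0624) and *Cd3g* (0.212 ± 0.131). *Cd8b1* (0.11 ± 0.0924), *Cd247* (0.101 ± 0.0523) and *Cd8a* (0.054 ± 0.032) were lowest. The 4 genes from *Cd3d* to *Cd3g* differed by less than the larger SD of each pair, as did *Cd8b1*, *Cd247* and *Cd8a* among themselves. In Aged, *Lck* (1.32 ± 0.56), *Cd4* (1.27 ± 0.932), *Cd3d* (1.01 ± 0.726), *Cd3e* (0.993 ± 0.711), *Zap70* (0.968 ± 0.55) and *Cd3g* (0.934 ± 0.515) came within 1 SD of each other. Without Aged replicate 34 the Aged means were 1.03 for *Lck*, 0.732 for *Cd4*, 0.663 for *Zap70*, 0.638 for *Cd3g*, 0.614 for *Cd3d* and 0.592 for *Cd3e*. Neither of the remaining Aged ovaries alone had *Lck*, *Cd4* and *Zap70* in the lead, as the Control means did. In Aged replicate 31 *Cd3d* (0.83) was above *Cd4* (0.734), and in Aged replicate 33 *Cd3g* (0.583) was above *Zap70* (0.513). In Aged+CF, *Zap70* (0.807 ± 0.205) and *Lck* (0.8 ± 0.175) led, with *Cd3g* (0.459 ± 0.0626), *Cd3d* (0.416 ± 0.186) and *Cd3e* (0.403 ± 0.047) close together below *Cd4* (0.685 ± 0.0893).

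Ratios within each ovary do not depend on library size. In FPKM, *Cd4* was 3.51, 2.5, 4.04 and 3.68 times *Cd3e* in Control. It was 0.983, 1.67 and 1.31 times *Cd3e* in Aged and 1.74, 1.76 and 1.6 times in the Aged+CF group. Both aged groups lay below every Control ovary, and Aged replicate 34 (1.31) lay between the other Aged ovaries. The *Lck* to *Cd3e* ratio was 4.21 ± 1.57 in Control, 1.53 ± 0.404 in Aged and 1.98 ± 0.327 in the Aged+CF group, and its lowest Control value (2.14) was under the highest Aged+CF value (2.35). The *Cd3g* to *Cd3e* ratio was 1.62, 0.477, 0.482 and 1.42 in Control, with no ovary near the mean of 1. It was 0.85 to 1.33 in Aged and 0.996 to 1.25 in the Aged+CF group, both inside the Control range. The *Cd4* to *Cd8a* ratio overlapped widely (8.53 to 45 in Control, 10.6 to 24.4 in Aged and 9.73 to 26.9 in Aged+CF), with 2 to 31 reads of *Cd8a* per ovary behind it.

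*Ptprc* encodes CD45, carried by nearly all white blood cells, and it was higher in the aged groups, at 15.5 ± 1.52 CPM in Control, 37 ± 16.2 CPM in Aged and 27.3 ± 0.847 CPM in the Aged+CF group. Set against it, *Cd3e* was at 35.2, 47.4, 26.4 and 35.1% of the *Ptprc* FPKM in Control and at 62, 59.5 and 88.5% in Aged. In the Aged+CF ovaries it was at 34.7, 45.1 and 38.9%. All Aged ovaries were above all others, and Aged+CF lay inside the Control range. *Cd3g* was at 12.7 to 57.1% in Control, 57.6 to 79.2% in Aged and 38.7 to 53.3% in the Aged+CF group. *Lck* went the other way, at 101 to 157% of *Ptprc* in Control, 94.3 to 108% in Aged and 60 to 91.3% in the Aged+CF group, with Aged overlapping Control and Aged+CF below both. *Cd4* was at 119 ± 9.62% in Control, 92 ± 28.1% in Aged and 67.3 ± 10.4% in the Aged+CF group, with Aged+CF below every Control ovary. For *Cd3d*, *Cd247*, *Zap70*, *Lat*, *Cd8a* and *Cd8b1* the Aged and Control percentages overlapped. Of these, *Cd247*, *Zap70* and *Cd8a* had lower means in Aged than in Control, and *Cd3d*, *Lat* and *Cd8b1* had higher means.

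**Figure D3:**
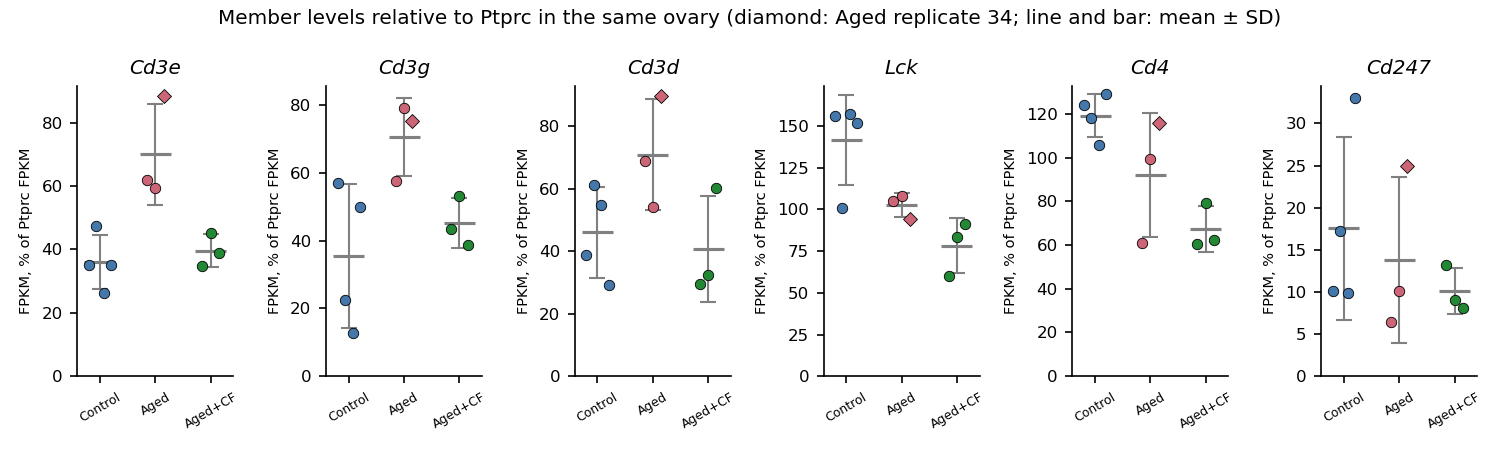
FPKM of 6 members as a percentage of the *Ptprc* FPKM in the same ovary (vertical axis, from 0, with its own scale in each panel), with 1 point per ovary, the diamond for Aged replicate 34 and the line and bar for the mean ± SD. *Cd3e* and *Cd3g* are above all other ovaries in the 3 Aged ovaries, while *Lck*, *Cd4* and *Cd247* have their highest means in Control.

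Reads of the T cell receptor's own antigen-binding chains used none of the members and could be tested. Of 270 receptor gene segments, 116 had a read, and 77% of these reads were on the 8 constant segments. The summed level was 5.78, 8.79, 5.53 and 6.36 CPM in Control, 12.9, 11.1 and 32.1 CPM in Aged and 9.86, 10.9 and 14.5 CPM in the Aged+CF group. Every ovary of both aged groups was above every Control ovary, and Aged and Aged+CF overlapped. The difference was 2.54-fold in Aged against Control (two-sided exact permutation p = 0.0571, adjusted p = 0.0857 over 3 comparisons) and 1.77-fold in Aged+CF against Control (exact permutation p = 0.0571, adjusted p = 0.0857). Between Aged+CF and Aged the ratio was 0.699 (exact permutation p = 0.4, adjusted p = 0.4). None passed the threshold, and none could, since the smallest p of this two-sided permutation test is 0.0571 for 3 against 4 ovaries. For 3 against 3 it is 0.1. The test therefore cannot decide whether these groups differ. Without Aged replicate 34 the log2 difference in Aged against Control went from 1.34 to 0.87.

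By chain, *Trac*, the constant region of the alpha chain, was at 1.07 ± 0.44 CPM in Control, 3.15 ± 1.57 CPM in Aged and 1.42 ± 0.23 CPM in the Aged+CF group. *Trbc2*, a beta constant region, was at 1.22 ± 0.261, 4.33 ± 2.08 and 2.18 ± 0.548 CPM. *Trdc*, the constant region of the delta chain of gamma-delta T cells, was at 0.743 ± 0.409, 2.05 ± 1.87 and 1.89 ± 0.664 CPM. The Aged+CF mean of *Trdc* was thus close to its Aged mean, which rested on 76 reads in Aged replicate 34 against 21 and 10 in the other Aged ovaries. *Trac* and *Trdc* were chosen after their values were seen, and near-identical segments can split reads.

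Of 99 other genes of the T cell receptor pathway and of T cells, 89 passed the filter, and 25 rose and 3 fell in Aged against Control (edgeR, fold change of at least 1.5 and adjusted p under 0.05). For all genes tested the share called was 11.1%. The median log2 fold change of these genes was 0.68, against 0 for all genes. Without Aged replicate 34 it was 0.43 with 25 genes called, 22 of them the same, while the share called over all genes was 16.1%. Receptor chains and costimulatory receptors had the highest medians (1.57 over 5 genes and 1.54 over 14), and inhibitors the lowest (0.15 over 21). Many of these genes are also used by other white blood cells, whose markers were higher in the aged groups too.

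Among costimulatory and accessory receptors, 7 of 14 rose and none fell, where 5% of all genes were called higher. *Cd2*, an adhesion receptor that binds the antigen-presenting cell, rose from 0.384 ± 0.127 to 2.35 ± 1.72 CPM (log2 fold change 2.61 ± 0.57, edgeR adjusted p = 0.0173). *Cd28*, the main costimulatory receptor, rose from 2.26 ± 0.592 to 8.71 ± 5.61 CPM (1.94 ± 0.41, edgeR adjusted p = 0.0156). *Icos*, which is related to CD28, rose by 2.21 ± 0.48 on the log2 scale (edgeR adjusted p = 0.0166, and 0.051 without Control replicate 32), and *Cd226* by 2.18 ± 0.47 (edgeR adjusted p = 0.0165). Leaving out Aged replicate 34 gave log2 fold changes of 1.94 for *Cd2*, 1.53 for *Icos* and 1.43 for *Cd226*, all still called. That of *Cd28* became larger instead, 2.35, and was also called. *Ptprc*, a phosphatase that keeps LCK ready to act, rose by 1.25 ± 0.24 (edgeR adjusted p = 0.0114).

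Of the receptor chains, 3 of 5 rose (1 without Aged replicate 34), with *Trbc2* at a log2 fold change of 1.82 ± 0.34 (edgeR adjusted p = 0.0107). Of 24 kinases and adaptors that act beside and below ZAP70 and LAT, 3 rose and none fell, with a median of 0.48. That count is near the share of all genes called in this comparison (11.1%), so nothing is read from it. Those 3 were *Lcp2*, which encodes the adaptor SLP-76 that LAT recruits, *Nfatc2*, a transcription factor switched on by calcium, and *Tespa1*, and none of the 3 was called without Control replicate 34. The log2 fold change of *Tespa1* went from 2.01 to 1.34 without Aged replicate 34.

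Inhibitors went both ways, with 3 of 21 higher and 2 lower, where 11.1% of all genes were called in either direction. *Ptpn6*, which encodes the phosphatase SHP-1 of many white blood cells, rose from 12.6 ± 1.2 to 26 ± 2.57 CPM (log2 fold change 1.05 ± 0.13, edgeR adjusted p = 0.00399). *Ubash3b*, which encodes a phosphatase that removes phosphate from ZAP70, fell from 42.5 ± 3.39 to 16.9 ± 3.56 CPM (-1.33 ± 0.2, edgeR adjusted p = 0.0054). Its gene is also active in cells other than T cells. *Ubash3a*, its T cell relative, fell from 2.42 ± 0.557 to 1.24 ± 0.283 CPM (edgeR adjusted p = 0.0443). That call held in 1 of 10 fits with an ovary left out, the one without Control replicate 33 (edgeR adjusted p from 0.0462 to 0.127 over the 10 fits).

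Of 25 lineage factors and cytokine receptors, 9 rose and 1 fell, where 11.1% of all genes were called in either direction. *Runx3*, a transcription factor of cytotoxic T cells and natural killer cells, rose 8.78-fold, from 2.09 ± 1.06 to 18.4 ± 7.48 CPM (log2 fold change 3.13 ± 0.37, edgeR adjusted p = 0.00358, and 3.3 on the log2 scale with Aged replicate 34 left out). In Aged, *Cd3e* (4.59 CPM) and *Cd8a* (0.814 CPM) were far below *Runx3*. Which cells held the *Runx3* reads was not tested. *Il7r*, the receptor for the survival cytokine interleukin 7, rose 5.13-fold, from 2.65 ± 0.317 to 13.6 ± 8.77 CPM (2.36 ± 0.35, edgeR adjusted p = 0.0055), with a log2 fold change of 1.73 without Aged replicate 34. The chemokine receptors *Cxcr6* (1.85 ± 0.32, edgeR adjusted p = 0.0083) and *Cxcr3* (1.71 ± 0.36, edgeR adjusted p = 0.0145) rose, as did the shared cytokine receptor chains *Il2rg* (1.24 ± 0.22, edgeR adjusted p = 0.00907) and *Il2rb* (1.26 ± 0.24, edgeR adjusted p = 0.0119). *Tcf7*, a transcription factor of naive T cells, fell from 71.9 ± 9.23 to 44.5 ± 2.28 CPM (-0.69 ± 0.12, edgeR adjusted p = 0.00855). Its Control level was far above that of *Cd3e* (0.939 CPM), so its fall cannot be read as a fall in T cells. Which cells held its reads was not tested. *Cxcr6* lies within *Fyco1* on the opposite strand and *Tcf7* overlaps an antisense gene, so their counts are uncertain.

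No pathway gene was called between Aged+CF and Aged, where 0 of the 89 genes passed in edgeR at adjusted p, with 25 at an unadjusted p under 0.05, 4 called by DESeq2 and 0 by limma. The shares over all genes were 16.3% at that unadjusted p, 2.33% by DESeq2 and 0.0106% by limma. With the fold limit, 1 was higher and 19 lower in the Aged+CF group at unadjusted p (3.91% and 4.05% of all genes), and the median over the 89 was -0.4, against -0.08 without Aged replicate 34. Among genes with a fold change of at least 1.5, those with the smallest p were *Ptpn6* (log2 fold change -0.76 ± 0.14, edgeR adjusted p = 0.15), the quiescence factor *Klf2* (-0.77 ± 0.17, edgeR adjusted p = 0.161) and *Ubash3b* (0.79 ± 0.2, edgeR adjusted p = 0.169). They were followed by the costimulatory receptor *Tnfrsf9* (-3.05 ± 0.92, edgeR adjusted p = 0.187), which overlaps *Camta1* on the opposite strand, and *Icos* (-1.61 ± 0.5, edgeR adjusted p = 0.199). Below that fold, *Cblb* (0.54 ± 0.12, edgeR adjusted p = 0.159), which encodes an inhibitory ubiquitin ligase and was chosen after its values were seen, and *Tcf7* (0.47 ± 0.13, edgeR adjusted p = 0.171) also ranked among the 5 smallest p. Without Aged replicate 34, 4 genes were called, as were 2.87% of all genes (*Ptpn6*, *Tnfrsf9*, *Cd28* and *Cbl*, the last chosen after its values were seen).

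Compared with Control, 0 of the 89 were called in the Aged+CF group by edgeR at adjusted p, with 18 at an unadjusted p under 0.05, 6 called by DESeq2 and 1 by limma. Over all genes these shares were 14.3%, 2.79% and 0.359%. The median was 0.28, against -0.03 for all genes. *Runx3* was at 8.54 ± 0.543 CPM in the Aged+CF group (log2 fold change against Control 2.03 ± 0.37, edgeR adjusted p = 0.07) and *Il7r* at 7.61 ± 0.185 CPM (1.52 ± 0.35, edgeR adjusted p = 0.12). The others with the smallest p were the inhibitory adaptor *Dok1* (0.59 ± 0.11, edgeR adjusted p = 0.0719), *Cxcr6* (1.44 ± 0.32, edgeR adjusted p = 0.109) and *Ubash3a* (-1.17 ± 0.28, edgeR adjusted p = 0.128). Without Aged replicate 34, 6 genes were called (*Runx3*, *Il7r*, *Dok1*, *Cxcr6*, *Ptprc* and *Cd226*), as were 1.8% of all genes.

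**Figure D4:**
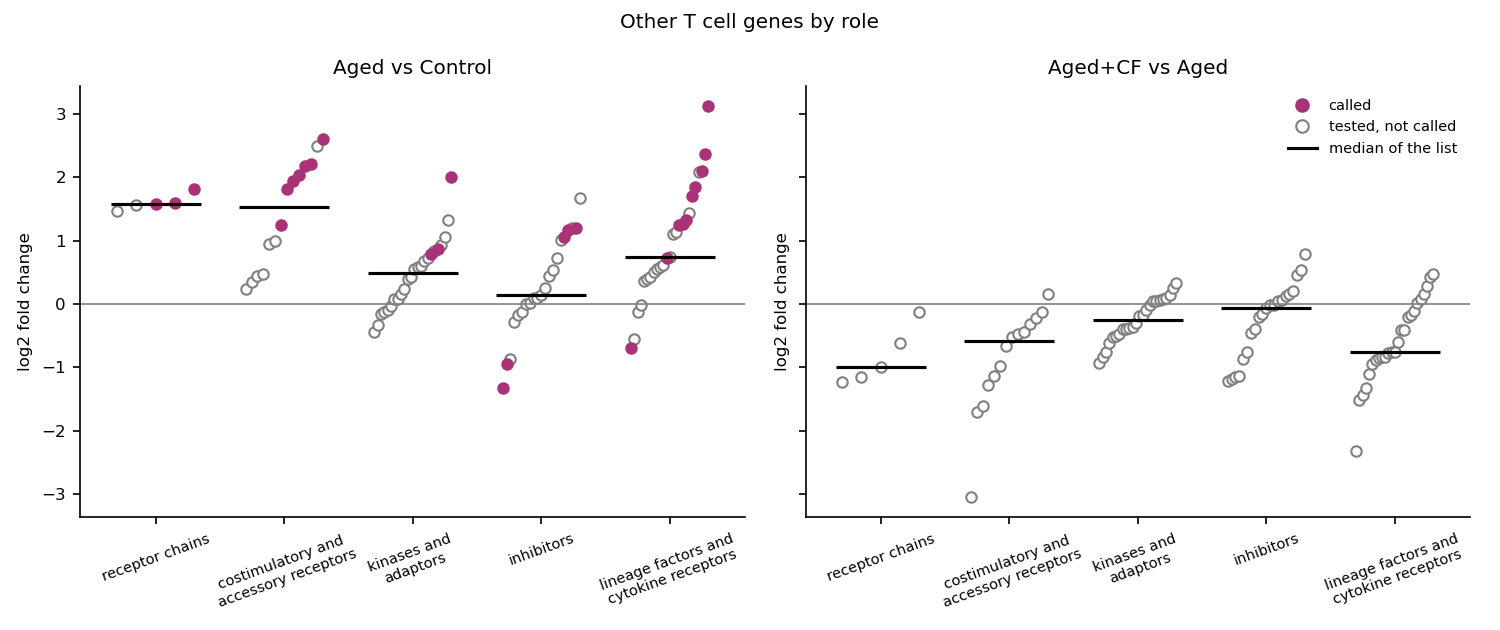
Log2 fold change of 89 other T cell genes (vertical axis) by role (horizontal axis) in both comparisons that involve the Aged group, with filled points for genes called at adjusted p and a fold change of at least 1.5, open points for the rest and a line at the median of each list. In Aged vs Control 28 genes are called, 25 of them above 0, and 0 are called between Aged+CF and Aged.

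Several marker lists of other blood cells were higher in the aged groups, as the members were, and their part in the results was not tested. The T cell marker list (13 genes, 5 of them members) summed to 12.8 to 17.1 CPM in Control, 34.5 to 66.3 in Aged and 20.2 to 25.4 in the Aged+CF group. Natural killer or cytotoxic cell markers (11 genes) were at 20.7 to 25.2, 33.6 to 70.4 and 29.5 to 35.4 CPM, and macrophage markers (11 genes) at 563 to 643, 882 to 1710 and 792 to 911 CPM. Mast cell markers (8 genes) were at 26.9 to 46.4, 59.4 to 286 and 34.6 to 59.6 CPM, and erythroid markers (7 genes) at 71.8 to 112, 265 to 638 and 109 to 260 CPM. Dendritic cell markers (9 genes) were at 65.9 to 76.1 CPM in Control, 61.2 to 142 in Aged, with Aged replicate 33 below every Control ovary, and 78 to 87.4 in the Aged+CF group. Thymocyte markers (6 genes) were lower in both aged groups on average, with means of 32.8 in Control, 28 in Aged and 27.8 CPM in the Aged+CF group. Of these 6 markers, 3 (*Rag2*, *Ptcra* and *Dntt*) had at most 3 reads in any ovary. *Rag1* reached at most 0.609 CPM and *Themis* at most 0.795 CPM. Nearly all of the sum thus came from *Cd1d1* alone, and it is not read as a change in thymocytes.

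**Figure D5:**
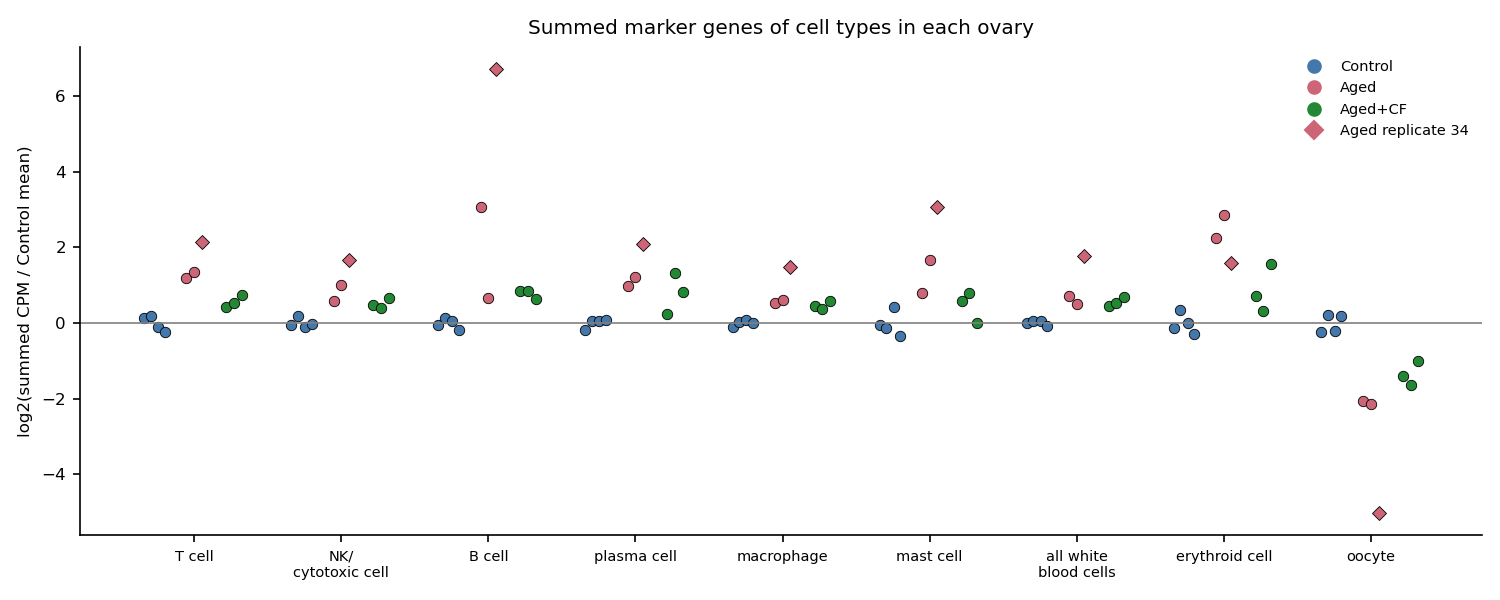
Summed marker genes of 9 cell types in each ovary, as log2 of the summed CPM over the Control mean (vertical axis), with 1 point per ovary and a diamond for Aged replicate 34. T cell markers lie above 0 in all Aged and Aged+CF ovaries, B cell markers of Aged replicate 34 stand far above those of all other ovaries, and oocyte markers lie below 0 in both aged groups.

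Across the 10 ovaries the members varied together, with a median Pearson r of 0.71 over the 45 pairs (0.33 to 0.91). This rested largely on Aged replicate 34, and without it the median r was 0.36 (-0.64 to 0.82). Among 16772 genes at 1 CPM or more on average, those most like the mean standardized member profile were *Il6ra* (r = 0.974), *Rnf170* (0.96), *Myo1g* (0.958), *H2-K2* (0.957), *Rac2* (0.952), *Cxcl16* (0.95), *Pianp* (0.95) and *Cd37* (0.949). After the group means were taken off, r was 0.984 for *Il6ra* and 0.875 for *Cd37*, and without Aged replicate 34 it was 0.892 and 0.762. In all, 95 genes had an r of at least 0.9, and these ovaries share the single high library.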

How the data were processed

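RNA from 10 ovaries was compared by the groups in the labels (Control, Aged and Aged+CF), with the replicate numbers of the titles. Raw counts for each gene, with no normalization, were deposited beside FPKM values, in which the authors scaled these counts to gene length and library size. The submitters' processing notes name TopHat (no version), Cufflinks 2.1.1 and GRCm38.p4, while the counting tool, the annotation and the use of strand are not given in the sources used here. Positions are from GENCODE M21 on GRCm38, which held 55141 of the table's identifiers, and promoter sequences are from RefSeq (GRCm38.p6).

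Of 55487 genes, 18869 had no count and 18956 passed edgeR's filter on low counts (minimum count 10, total 15). The counts were scaled by TMM and fitted in edgeR 4.0 (R 4.3) by quasi-likelihood with a mean per group over all 10 ovaries, and p values were adjusted by Benjamini-Hochberg over all genes tested. The study's methods state the limits (fold change of at least 1.5, adjusted p under 0.05) but name no test. Its results and figure legend instead give a P value under 0.05 and do not mention adjustment. Receptor segment reads were compared as log2(CPM + 0.1) with exact permutation tests. Gene symbols were taken from the table. The fits were tested on simulated data, and no library was found to be a duplicate of another.

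The members and lists were chosen with earlier results of these data known. Named genes are the members, the called pathway genes (up to 15 per comparison by smallest p, or the 5 with the smallest unadjusted p where fewer than 5 were called) and the 8 genes nearest in pattern. *Lcp2*, *Nfatc2*, *Tespa1*, *Foxl2* and *Cyp11a1* were named after their values were seen. Replicate numbers shared by groups mark different animals, and nothing in the labels says that they mark a batch. The alternatives were no filter, DESeq2's size factors, the Wald test of DESeq2 1.42, only the compared groups, the replicate number as a block, limma 3.58 on log2(FPKM + 0.1), unadjusted p, no fold limit, constant segments only and leaving out each ovary. The study's methods call the samples biological replicates. The biological coefficient of variation was 0.209 in Control, 0.378 in Aged and 0.193 in the Aged+CF group.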

Additional observations from a re-analysis of the deposited data

How the results depend on the processing

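The log2 fold changes of the members moved by less than the spread between replicates in 385 recomputed values. In 14 others they moved by more, 8 without Aged replicate 34, among which *Cd247* changed sign in 2 comparisons, 5 with the replicate block, among which *Lat* went from 0.49 to -0.34 and *Cd247* from 0.06 to -0.84 in Aged+CF vs Control, and 1 with limma on log2(FPKM + 0.1). With the replicate block 0 members were called between Aged and Control at adjusted p, against 3 without it. Of the other T cell genes, 28 were called in Aged vs Control, 0 with the replicate block and 44 at unadjusted p. Of all 18956 genes tested, these settings called 2096, 80 and 3456, so the block left few calls of any kind. In Aged+CF vs Aged the count was 0, with 4 by the DESeq2 Wald test and 20 at unadjusted p, and in Aged+CF vs Control it was 0, with 6 by the DESeq2 Wald test, 6 with only the compared groups, 1 with limma and 14 at unadjusted p. The cause of these shifts was not tested. Leaving out 1 ovary gave 15 (without Control replicate 34) to 36 (without Aged replicate 33) called genes in Aged vs Control. Those fits called 1090 and 1784 of all genes. The range was 0 to 4 in Aged+CF vs Aged and 0 to 6 in Aged+CF vs Control, the highest of both without Aged replicate 34. The members' median went from 0.67 to 1.79 in Aged vs Control, from -1.36 to -0.41 in Aged+CF vs Aged and from 0.44 to 0.68 in Aged+CF vs Control. The log2 difference in receptor segment reads went from 0.87 to 1.63, from -0.80 to -0.05 and from 0.67 to 0.97. With limma on log2(FPKM + 0.1) the median of all genes in Aged vs Control was -0.14, against which the member median was 0.85. Ovaries with the same replicate number did not deviate together (r of -0.19 to 0.15 over the 6 pairs). The counts of 1 to 31 reads of *Cd8a* and *Cd8b1* limit what can be said of them.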
